A study of Homo sapiens with 6 samples.

Results

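Cytosolic ribosomal protein genes encode the protein part of the ribosome that translates nuclear-encoded mRNAs. They were taken here by gene symbol: RPL or RPS followed by a number and at most 1 letter and 1 digit, plus RPLP0, RPLP1, RPLP2 and RPSA. Pseudogenes, paralogs with an L suffix and RPS4Y genes were left out. The rule gave 76 of the 35820 genes in the deposited tables, 45 of the large subunit and 31 of the small subunit. The cells were HT1080, an established human fibrosarcoma line, and total RNA was sequenced after depletion of ribosomal RNA. Of the 6 libraries, 3 came from a TOP3B knockout (KO) derivative made by CRISPR with a guide against exon 2 of TOP3B, which the series text calls E2-2, and 3 from wild-type (WT) cells. No other allele or treatment is given for either group. The study set out to learn how TOP3B, a topoisomerase that acts on DNA and RNA, affects R-loops and transcription, and 1 KO derivative represents the knockout. Whether the replicates of a group were grown apart is not stated, and the p-values given here then rest on a spread that may be technical only.

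A ribosome joins a small subunit, which decodes the mRNA, to a large subunit, which forms the peptide bond. Nearly every ribosomal protein is present once per ribosome, and only the acidic proteins of the flexible stalk, RPLP1 and RPLP2, are present as dimers. Their genes are strongly expressed in growing cells, many carry small nucleolar RNA (snoRNA) genes in their introns, and most have left processed pseudogenes in the genome. Their mRNAs typically start with a cytosine followed by an uninterrupted run of pyrimidines, the 5' terminal oligopyrimidine (TOP) tract. Through it, mTORC1 and the RNA-binding protein LARP1 control their translation together.

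The start of 8 of these genes is shown because their mRNAs carry results that follow. They are the 5 that passed the test and 3 of the genes that set KO replicate 3 apart. Each sequence is 30 bases long, from 20 bases before the annotated start to 10 bases from it on, so that base 21 is the start. Sequences are from RefSeq (GRCh38.p14), read 5' to 3' on the gene's strand, and capitals mark the longest run of C and T.
RPS3, chr11:75399498-75399527, plus strand: cttccgcccgcgagccaCTTCCTTTCCTTT
RPS21, chr20:62387083-62387112, plus strand: tgccgggtgactagctgCTTCCTTTCTCTC
RPS25, chr11:119018334-119018363, minus strand: ccgtttctgagcagcgCTTCCTTTTTgtcc
RPL36A, chrX:101390991-101391020, plus strand: ttccgtttgcctcgcggTTTCTTTCTTTCC
RPS12, chr6:132814549-132814578, plus strand: ggcatgcgtgcggatgaggCCTCTTTCCCT
RPL18, chr19:48619169-48619198, minus strand: cgcccaccccagcccgTTCTCTCTTTCCgg
RPLP1, chr15:69452798-69452827, plus strand: gctgcgtataggcgcgagagCCCCTTTCCT
RPS9, chr19:54200838-54200867, plus strand: cagccgtggcgcttccgcgCCTCTTTCTCa

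All 8 windows hold a run of 10 to 13 pyrimidines that covers the start base. This range holds for the genes picked. Among others that set KO replicate 3 apart, the longest run was 5 for RPL9, 5 for RPL3 and 8 for RPL10A. RefSeq promoter entries matched 61 of the 76 genes, with 75 entries in all. A run of at least 8 C or T letters lay in this window in 54 of the 75 entries (72%), against 14.3% of all 35116 promoter entries, searched on the gene's strand only. Of the genes that passed the test, the 4 that rose and the 1 that fell all carry such a run, so the letters in this window do not separate them. A match describes the sequence and is not evidence of a working tract.

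The deposited estimated counts summed to between 17919106 and 20475280 per library, and all 76 genes were above 0 in every library, with at least 156 counts. KO replicate 3 stood apart from KO replicates 1 and 2. In KO replicate 3, 30.8% of all 13965 genes tested lay more than 1.5-fold from the mean of the other KO libraries, against 12.3% to 16.7% in the other 5 libraries, each set against the rest of its own group. The series text names HCT116, a colon line, once for the WT cells. The mesenchymal marker VIM was at 11310 to 12350 CPM (counts scaled to library size with TMM) in all 6 libraries, the colon markers CDX2 and KRT20 were at 0, and EPCAM did not exceed 0.295 CPM. CDH1 and LGALS4 reached 2.43 and 3.12 CPM, while the mesenchymal markers THY1 and S100A4 did not exceed 0.0570 and 4.16 CPM. Of the other mesenchymal markers CD44 did not pass, and FN1 and SPARC passed as lower in KO, FN1 at 2466 to 3561 CPM in KO against 11210 to 12630 CPM in WT and SPARC at 3235 to 3632 CPM in KO against 5530 to 5866 CPM in WT. VIL1 did not exceed 0.0570 CPM. CDKN2A, deleted in HT1080, was at 0 in all 6. TOP3B was at 20.02, 19.3 and 18.5 CPM in KO replicates 1, 2 and 3, against 30.5, 19.1 and 23.1 CPM in WT replicates 1, 2 and 3, and did not pass (log2 fold change -0.33 ± 0.19 SE, edgeR adjusted p = 0.342). Since an exonic edit can leave the mRNA in place, the RNA level neither bears out nor contradicts the KO label.

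The levels assigned to genes whose proteins share one ribosome in nearly equal numbers were very unequal. They are given in the deposited RPKM, which scales counts to library size and to kilobases of gene. The kilobases in question are not those of the mature mRNA. The length implied by count and RPKM was, for 71 of the 76 genes, within 10% of the distance along the genome that its annotated transcripts cover on average, and its median was 5.42 times the spliced length of their coding transcripts. Mean RPKM over the 6 libraries ran from 1.53 for RPS10 to 2670 for RPL41, with a median of 48.6 and quartiles of 22.8 and 191. Rescaled to CPM per kilobase of spliced coding transcript, the levels still ran from 17.1 for RPS10 to 5038 for RPL41, a 295-fold range.

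RPL41, the shortest ribosomal protein, was at 2465, 2523 and 3664 RPKM in KO replicates 1, 2 and 3, against 2578, 2446 and 2347 RPKM in WT replicates 1, 2 and 3. The groups overlapped, with KO replicate 3 highest. RPL8 and RPL13, of the large subunit, followed with mean levels of 1093 and 1059 RPKM over all libraries. RPS6, the small-subunit protein that S6 kinases phosphorylate, and RPS23, a protein of the decoding centre, were next at 688 RPKM each. This order depends on the length used. Per kilobase of spliced coding transcript, RPL41, RPS3, RPS19, RPL10 and RPL13 held ranks 1, 2, 3, 4 and 5. RPL8, RPS23 and RPS6 then had ranks 7, 10 and 12. Over the 6 libraries the range of RPL8 overlapped that of RPL13, and the range of RPS6 overlapped that of RPS23. Between the groups, RPS6 was at 695, 680.5 and 870.5 RPKM in KO replicates 1, 2 and 3, against 659.5, 637 and 586 RPKM in WT replicates 1, 2 and 3, so that every KO library was above WT, but the difference did not pass (log2 fold change 0.19 ± 0.10 SE, edgeR adjusted p = 0.283).

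At the other end, RPS10, which lies at the head of the small subunit, was at 1.19, 1.29 and 1.16 RPKM in KO replicates 1, 2 and 3, against 1.53, 2.09 and 1.92 RPKM in WT replicates 1, 2 and 3. The groups did not overlap, and KO was lower. A separate row of the table, the readthrough gene RPS10-NUDT3, was at 36.1 to 54.9 CPM, above the 7.98 to 15.8 CPM of RPS10 itself, and 42.7% of the counts of RPS10 and the pseudogenes named after it lay on the pseudogenes. RPL39, a protein of the exit tunnel, averaged 4.74 RPKM, RPL24 5.13 RPKM, RPS29 7.07 RPKM and RPL27 7.17 RPKM. RPL5, which carries 5S ribosomal RNA into the large subunit and binds MDM2 when free, was just above these at 7.61 RPKM. Because counts of near-identical copies can be assigned to one another, levels of single genes in this family are uncertain. Which transcript sequences the counts were assigned to is not given, and the lengths behind the RPKM include introns. How much of a gene's count came from mature mRNA and how much from unspliced RNA cannot be told apart in these tables, so levels, shares and fold changes are those of the counts assigned to a gene and may miss part of its mature mRNA.

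**Figure D1:**
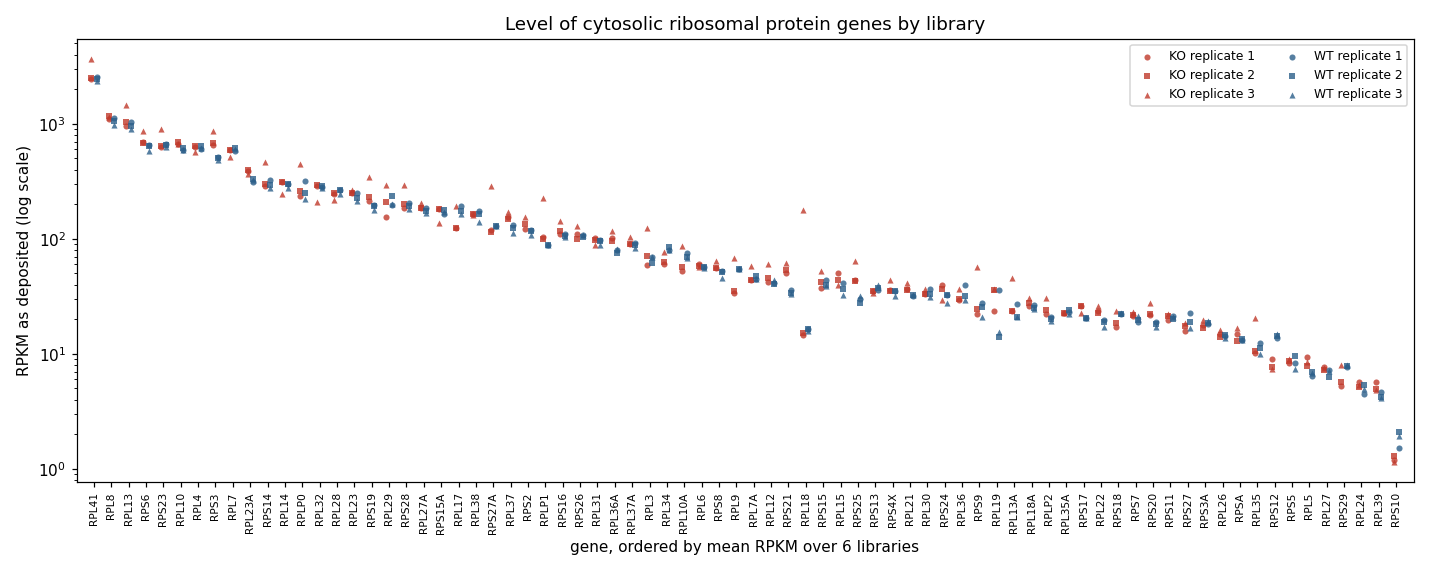
Deposited RPKM of each of the 76 genes on a log axis, ordered by the mean over 6 libraries, with KO libraries in red left of WT libraries in blue and 1 symbol per replicate. The order runs from RPL41 at 2670 RPKM to RPS10 at 1.53 RPKM, and for most genes the 6 libraries lie close together, with KO replicate 3 of RPL18 far above the rest at 178 RPKM.

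Level showed little relation to the few features of a gene that were compared with it. The 76 genes are not independent replicates. Across them Spearman's rho of mean RPKM was -0.131 with the number of pseudogene rows named after the gene. It was 0.173 with the number of annotated transcripts and 0.012 with the number of snoRNA genes inside the gene. With the implied length, by which RPKM divides, rho was -0.219. That length had a rho of 0.073 with CPM per kilobase of spliced coding transcript. With the same measure rho was -0.139 for pseudogene rows, 0.22 for annotated transcripts and -0.067 for snoRNA genes inside the gene. The 28 genes that hold at least 1 snoRNA gene on their strand, 60 snoRNA genes in all, had a median of 46.3 RPKM, against 53.9 RPKM for the 48 genes that hold none. The median log2 fold change was 0.15 for the snoRNA hosts and 0.06 for the other 48 genes. Counts within a snoRNA and within its host gene cannot be told apart here.

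The 76 genes together took 4.59%, 4.72% and 5.58% of all counts in KO replicates 1, 2 and 3, against 4.52%, 4.42% and 4.19% in WT replicates 1, 2 and 3. In this share of unscaled counts all KO libraries were above all WT libraries. KO replicate 1 exceeded WT replicate 1 by little and KO replicate 3 was well above the rest. The mean was 4.96% ± 0.538 in KO and 4.38% ± 0.171 in WT (SD, n = 3 each). Wilson 95% intervals were at most 0.0105 percentage points to either side and cover counting error only. The small-subunit genes took 1.57%, 1.62% and 2.14% in KO replicates 1, 2 and 3, against 1.48%, 1.45% and 1.38% in WT replicates 1, 2 and 3. The large-subunit genes took 3.01%, 3.10% and 3.44% in KO, against 3.04%, 2.97% and 2.81% in WT, so for them the groups overlapped. These shares rest on few genes, since the 10 most abundant held 52.0% to 56.1% of the counts of all 76. On TMM-scaled CPM, with each gene weighed alike, the groups overlapped. The median log2 difference of the 76 genes from their WT means was 0.0105, 0.024 and 0.169 in KO replicates 1, 2 and 3. In WT replicates 1, 2 and 3 it was 0.0472, 0.0245 and -0.0734. A share of total counts is relative. In bulk RNA a change in the number of cells and a change in RNA per cell cannot be told apart.

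The main comparison asked for which ribosomal protein genes the assigned counts differed between KO and WT cells. Most did not pass the test. Of the 76 genes, all of them tested, RPS3, RPS21, RPS25 and RPL36A rose, RPS12 fell and 71 did not pass (edgeR quasi-likelihood test, Benjamini-Hochberg adjusted over 13965 genes, threshold 0.05). The share that passed was 6.58%, beside 7.84% of all genes tested, 3.21% higher and 4.63% lower in KO, and so was near that background. The median log2 fold change was 0.10 for the 76 genes and 0.05 for all genes tested, and 46 of the 76 lay within 0.2 of 0. An unadjusted p under 0.05 was found for 11 genes, where 24.7% of all genes tested had one. The standard errors ran from 0.07 to 0.95 on the log2 scale with a median of 0.12. KO lay entirely above WT for 16 of the genes and entirely below for 6, or 28.9% apart, beside 33.6% of all genes tested, 16.5% above and 17.1% below. The large subunit had 1 gene that passed of 45 and the small subunit 4 of 31. Whether these shares differ was not tested.

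**Figure D2:**
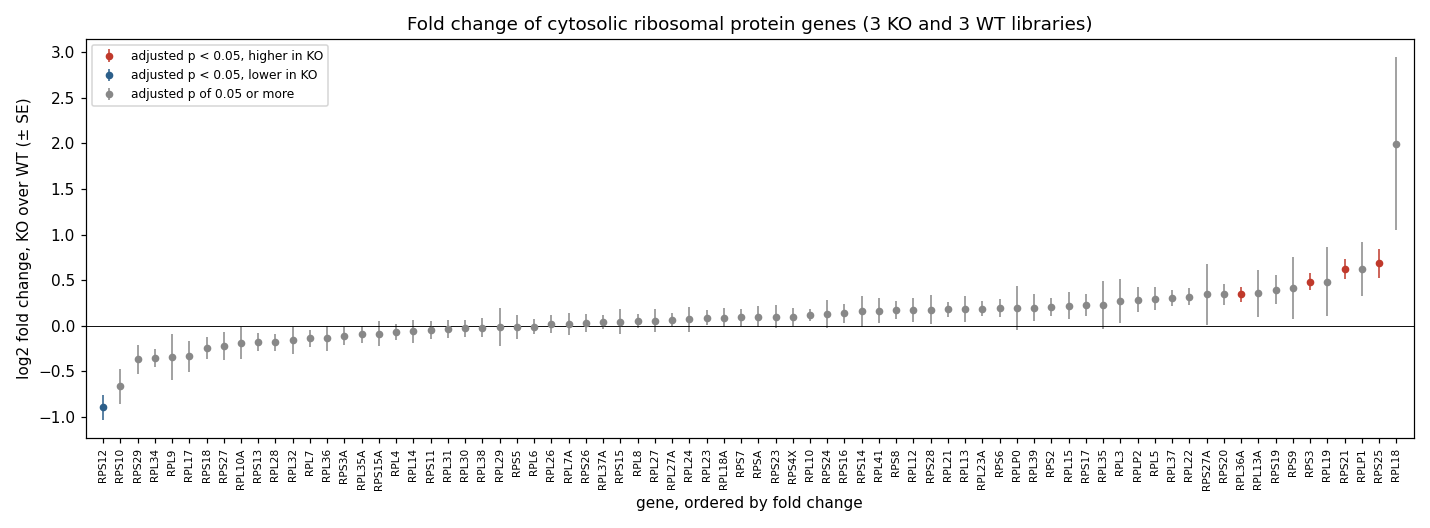
Log2 fold change of KO over WT with its standard error for each of the 76 genes, ordered by size, with genes that passed in red (higher in KO) and blue (lower in KO). The median is 0.10, RPS12 is lowest at -0.89, and RPL18 at 2.00 has a standard error of 0.95 and did not pass.

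RPS3 encodes a protein at the mRNA entry channel of the small subunit, for which a role in DNA repair is also described. Its gene lies on the plus strand of chromosome 11 from position 75399486 to 75422280 (GENCODE v29, GRCh38) and holds SNORD15A and SNORD15B. RPS3 was at 4045, 4254 and 5059 CPM in KO replicates 1, 2 and 3, against 3244, 3251 and 3050 CPM in WT replicates 1, 2 and 3. Every KO library was above every WT library, and it was 1.40-fold higher (log2 fold change 0.48 ± 0.10 SE, edgeR adjusted p = 0.0306). Without KO replicate 3, its highest library, the log2 fold change was 0.37 and passed (edgeR adjusted p = 0.00539). Across all alternatives its adjusted p lay between 0.00204 and 0.129, and it did not pass with limma on RPKM at either pseudocount.

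RPS21 encodes a small protein on the solvent side of the small subunit, and its gene lies on chromosome 20 from 62387116 to 62388520. It was at 60.7, 64.0 and 69.9 CPM in KO, against 43.9, 42.4 and 40.2 CPM in WT, in the order of replicates 1, 2 and 3. The groups were well apart, with a 1.54-fold rise (0.62 ± 0.11 SE, edgeR adjusted p = 0.0227).

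RPS25 encodes a protein of the small-subunit head that certain viral internal ribosome entry sites need, and its gene spans positions 119015712 to 119018691 of chromosome 11, minus strand. It was at 93.2, 91.4 and 130 CPM in KO replicates 1, 2 and 3, against 65.1, 61.9 and 68.9 CPM in WT replicates 1, 2 and 3. The 1.61-fold rise (0.68 ± 0.16 SE, edgeR adjusted p = 0.0494) was enlarged by KO replicate 3. Without that library it was 0.49 on the log2 scale and passed (edgeR adjusted p = 0.0164). Across all alternatives its adjusted p lay between 0.00354 and 0.178.

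RPL36A, the only large-subunit gene to pass, encodes a protein near the exit site for transfer RNA. It lies on the X chromosome from 101390824 to 101396154. Its level was 397, 375 and 429 CPM in KO replicates 1, 2 and 3, against 321, 305 and 318 CPM in WT replicates 1, 2 and 3. The groups did not overlap, but the 1.27-fold rise only just passed (0.35 ± 0.08 SE, edgeR adjusted p = 0.04997). Pseudogenes named after it held 50.04% of the joint count, and a readthrough gene, RPL36A-HNRNPH2, a further 148 to 198 CPM. With the pseudogene counts added the call was lost (log2 fold change 0.27, edgeR adjusted p = 0.0716), and the alternatives as a whole gave adjusted p-values of 0.00681 to 0.193.

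RPS12, the only gene of the 76 that fell, encodes a protein at the beak of the small subunit. It lies on chromosome 6 from 132814441 to 132817564 and holds SNORA33, SNORD100 and SNORD101. It was at 27.0, 22.9 and 20.98 CPM in KO, against 42.2, 44.6 and 44.5 CPM in WT, in the order of replicates 1, 2 and 3. The KO libraries lay far below the WT libraries, at a 1.85-fold fall (-0.89 ± 0.14 SE, edgeR adjusted p = 0.0142).

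**Figure D3:**
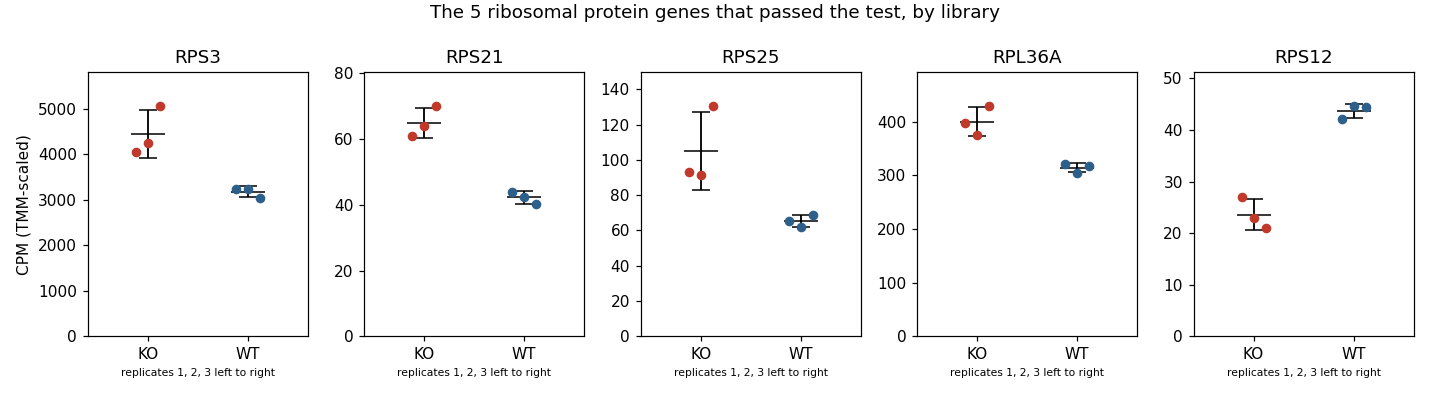
CPM in each library (points), with the mean and SD (black), of the 5 genes that passed, KO left of WT and each axis starting at 0. In all 5 genes the KO and WT libraries do not overlap, and KO replicate 3 is the highest library for RPS3, RPS21, RPS25 and RPL36A.

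These calls rested on most of the libraries. With WT replicate 1, 2 or 3 left out none of the 76 genes passed in edgeR's test, where 1.94%, 1.55% and 1.78% of all genes did, while 11, 9 and 9 of them had an unadjusted p under 0.05, beside 19.3%, 18.5% and 19.0% of all genes. Without KO replicate 2 none passed either (2.50% of all genes), with 13 genes at an unadjusted p under 0.05 (21.7% of all genes). RPS12 alone passed without KO replicate 1 (2.71% of all genes), and all 5 passed without KO replicate 3 (13.2%). The 5 genes kept their direction in each of these fits, and their highest adjusted p was 0.193. With all libraries, limma-voom called 3 genes (7.98% of all), limma on log2(RPKM + 1) 2 (7.74%) and on log2(RPKM + 0.1) 2 (7.51%). In edgeR, DESeq2 size factors gave 3 (8.09%), upper quartile scaling 5 (7.96%), library size alone 4 (7.99%) and sizes that left out the top 100 genes 5 (8.00%). Testing every gene with any count gave 3 (4.02%), a minimum of 1 CPM in 3 libraries 5 (9.01%) and pseudogene counts added to each gene 4 (7.87%). RPS12 and RPS21 passed in every one of these fits on all libraries.

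The genes with the next smallest adjusted p were RPL34, RPS10, RPL22 and RPL37, picked after their values were seen. RPL34 was at 302, 310 and 362 CPM in KO replicates 1, 2 and 3, against 408, 437 and 402 CPM in WT replicates 1, 2 and 3 (log2 fold change -0.36 ± 0.10 SE, edgeR adjusted p = 0.0737). RPS10, at the levels given above, had a log2 fold change of -0.66 ± 0.19 SE (edgeR adjusted p = 0.0824), and of -0.39 with pseudogene counts added (edgeR adjusted p = 0.241, in a range of 0.0192 to 0.251 for all alternatives). RPL22 was at 350, 338 and 368 CPM in KO against 300, 291 and 254 CPM in WT. Its log2 fold change was 0.32 ± 0.09 SE (edgeR adjusted p = 0.0843), and 0.29 with pseudogene counts added (edgeR adjusted p = 0.132). Pseudogenes named after RPL22 held 16.8% of the joint count. RPL37 had a log2 fold change of 0.30 ± 0.09 SE (edgeR adjusted p = 0.0846). In these 4 genes the groups did not overlap. DESeq2 called all 4 as well, which made 6 genes higher and 3 lower of the 75 with an adjusted p, beside 6.57% higher and 9.20% lower of all genes (15.8% in all).

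The stalk of the large subunit, which recruits the translation factors that hydrolyse GTP, did not pass in any of its 3 genes. RPLP0, its base, was at 713, 773 and 1268 CPM in KO replicates 1, 2 and 3, against 965, 770 and 666 CPM in WT replicates 1, 2 and 3. The groups overlapped and KO replicate 3 was highest. RPLP1 was at 291, 279 and 599 CPM in KO, against 254, 256 and 249 CPM in WT, so every KO library was above WT but the size was set by KO replicate 3 (0.62 ± 0.29 SE, edgeR adjusted p = 0.243, and a log2 fold change of 0.16 without that library). RPLP2 was at 49.6, 53.7 and 65.0 CPM in KO, against 48.1, 46.1 and 43.6 CPM in WT, with the groups just apart (0.29 ± 0.14 SE, edgeR adjusted p = 0.246, and a log2 fold change of 0.16 without KO replicate 3). RPL5 was at 47.7, 39.4 and 40.7 CPM in KO, against 33.2, 36.2 and 34.7 CPM in WT (0.30 ± 0.13 SE, edgeR adjusted p = 0.205), and its KO libraries all lay above its WT libraries.

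Among single libraries RPL18 in KO replicate 3 lay farthest from the rest of its group. KO replicate 3 was the highest of the 6 libraries for 40 of the 76 genes (52.6%), beside 29.1% of all genes tested, and the lowest for 12 (15.8%), beside 27.6%. More than 1.5-fold from the mean of KO replicates 1 and 2 lay 12 genes, all of them above it. This is 15.8% of the 76, near the 15.9% of all genes tested that lay above it by that fold. In either direction 30.8% of all genes tested went past it, or 23.8% of the genes tested whose mean level was at least that of the lowest of the 76. In KO replicates 1 and 2, 4 and 2 of the 76 went past that fold, all below (16.7% and 15.9% of all genes in either direction). In WT replicates 1, 2 and 3, 1, 1 and 0 did (13.0%, 12.4% and 12.3%). Because each library was set against the other 2 of its group, a gene high in 1 library also puts its partners below. RPL18 lay at -1.78 and -1.71 on the log2 scale in KO replicates 1 and 2. RPL19 lay at -0.709 in WT replicate 2, beside 1.28 in WT replicate 1. No test was made on single libraries.

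RPL18, of the large subunit, was at 553 CPM in KO replicate 3 and at 48.0 and 49.7 CPM in KO replicates 1 and 2, against 55.2, 55.8 and 52.0 CPM in WT replicates 1, 2 and 3. That is 11.2 times the other KO libraries, from 10814 counts against 976 and 988. RPS27A, made as a fusion to ubiquitin, was at 605 CPM there, at 263 and 253 CPM in KO replicates 1 and 2 and at 292 to 296 CPM in WT. RPS9, a protein at the mRNA entry channel, was at 525 CPM in KO replicate 3, at 218 and 242 CPM in the other KO libraries and at 206 to 276 CPM in WT. For RPS27A and RPS9, as for RPL18 and RPLP0, the fold change turned negative without KO replicate 3, and none of the 4 passed in either fit. Further genes above 1.5-fold were RPLP1, RPL9, RPL35, RPL13A, RPL3, RPLP0, RPL29, RPL10A and RPS14. Outside the family, RACK1, which sits on the small subunit, was at 366, 374 and 959 CPM in KO replicates 1, 2 and 3, against 398, 348 and 347 CPM in WT replicates 1, 2 and 3. GAPDH, a glycolytic enzyme gene with many pseudogenes, was at 161, 220 and 965 CPM in KO, against 285, 215 and 198 CPM in WT. One WT library also had a gene apart, by more than any gene but RPL18 in a KO library, RPL19 at 158 CPM in WT replicate 1, against 62.7 and 66.7 CPM in WT replicates 2 and 3.

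**Figure D4:**
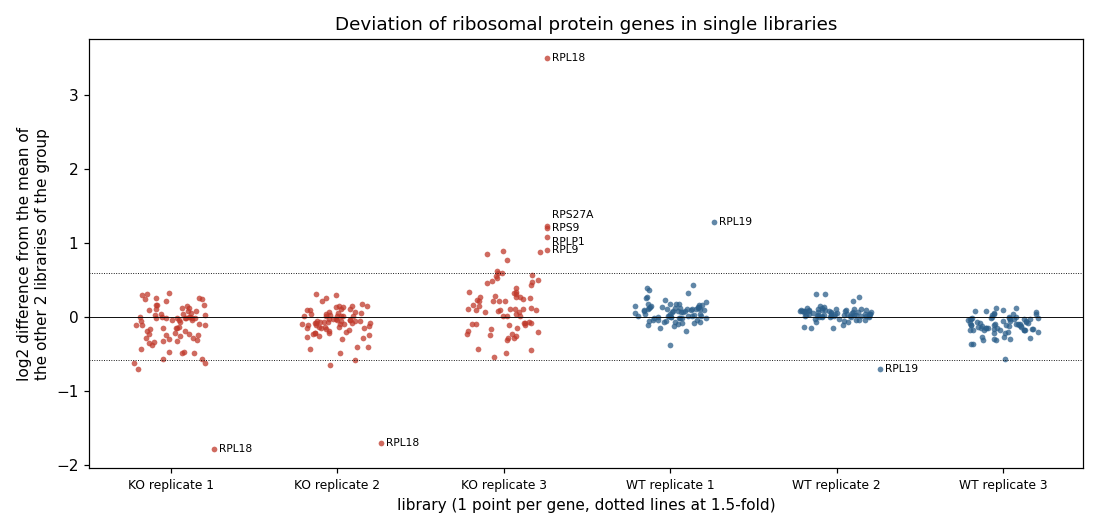
Log2 difference of each gene in a library from the mean of the other 2 libraries of its group, 1 point per gene, KO libraries left of WT libraries, with dotted lines at 1.5-fold. KO replicate 3 has 12 genes above the upper line and RPL18 at 3.49, while the WT libraries have 0 or 1 gene past a line.

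Without KO replicate 3, 5 genes were higher and 7 lower in KO, beside 5.39% and 7.84% of all genes tested in that fit, and the median log2 fold change of the 76 was 0.00. RPL23A joined the 4 that rose, and RPL9, RPL17, RPL34, RPL10A, RPS18 and RPS29 joined RPS12. RPL9, a large-subunit protein, was at 108, 113 and 207 CPM in KO replicates 1, 2 and 3, against 181, 182 and 179 CPM in WT replicates 1, 2 and 3. The first 2 KO libraries lay well below WT and the third above it, and the log2 fold change was -0.34 with all libraries and -0.72 without KO replicate 3 (edgeR adjusted p = 0.440 and 0.00227, in a range up to 0.709 without 1 library). RPL17, a protein at the rim of the exit tunnel, was at 330, 329 and 489 CPM in KO, against 520, 483 and 443 CPM in WT, with log2 fold changes of -0.33 with all libraries and -0.56 without KO replicate 3. RPS29, a zinc-binding protein of the small subunit, was at 36.1, 39.2 and 52.0 CPM in KO, against 53.6, 55.2 and 55.6 CPM in WT. Its groups did not overlap, and its log2 fold change of -0.37 with all libraries was -0.55 without KO replicate 3.

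The genes of this family lie on 21 chromosomes, and on some of them the other genes tested had a median fold change away from 0. These medians were -0.27 on chromosome 6 and -0.20 on chromosome 4, and 0.31 on chromosome 20 and 0.23 on chromosome 11 (log2, KO over WT). The quartiles of all genes tested were -0.29 and 0.39. Chromosome 13 had a median of 0.20, with RPL21 at 0.18. Chromosome 10 had one of -0.18, with RPS24 on the other side of 0 at 0.13. The 4 genes on chromosome 6 (RPS12, RPS10, RPS18 and RPL10A) and the 3 on chromosome 4 (RPL34, RPL9 and RPS3A) all had negative fold changes, except that RPS3A turned to 0.04 on the log2 scale, in place of -0.11, with pseudogene counts added. RPS12 lay 0.62 below the median of its chromosome, whereas RPS18 and RPL10A lay 0.02 and 0.08 above it. RPS3 and RPS25 lay 0.25 and 0.45 above the median of chromosome 11, and RPS21 0.31 above that of chromosome 20. Those medians were themselves 0.23 and 0.31. RPL36A, on the X chromosome with a median of -0.02, lay 0.36 above it. Whether any chromosome was shifted as a whole, and what part that would have in these fold changes, was not tested.

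**Figure D5:**
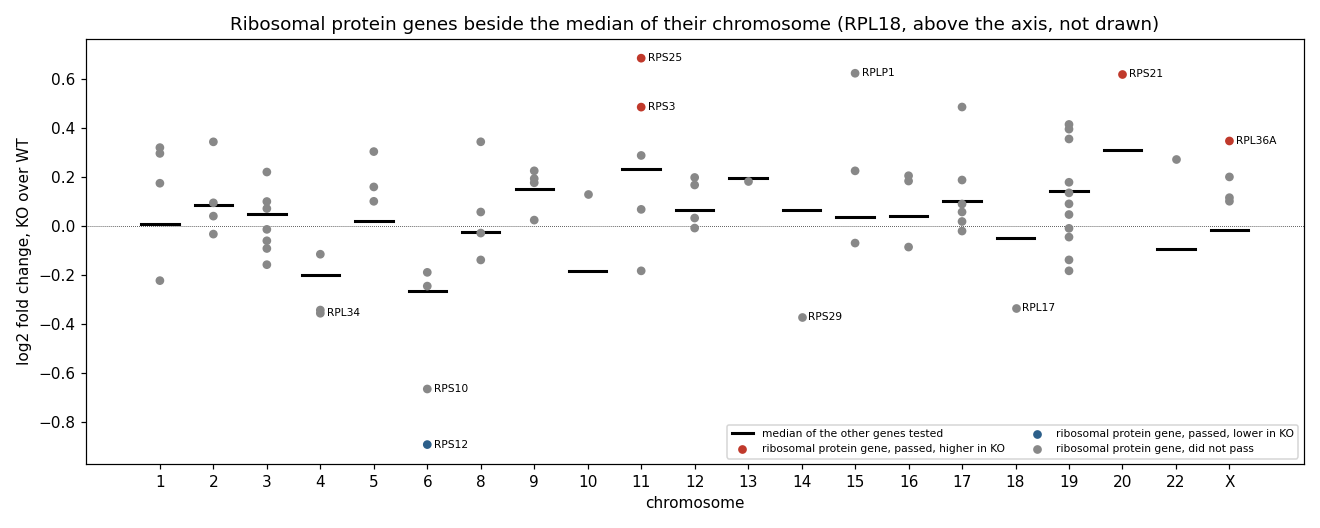
Log2 fold change of KO over WT of each gene (points) on its chromosome, beside the median of all other genes tested there (black bars), for the 21 chromosomes that hold at least 1 of the 76 genes. RPS3, RPS25, RPS21 and RPL36A lie above the median of their chromosome and RPS12 below it, and RPL18, at 2.00, is not drawn.

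Rows for pseudogenes named after these genes, 1585 in all, together took 0.165%, 0.165% and 0.176% of counts in KO replicates 1, 2 and 3, against 0.180%, 0.153% and 0.143% in WT replicates 1, 2 and 3. For 46 of the 76 genes less than 1% of the joint count lay on such rows, and for 9 genes more than 10%, among them RPS2 (59.9%), RPL36A (50.04%), RPS10 (42.7%) and RPS3A (41.5%). Counts of these 9 are uncertain. Of 80 pseudogenes tested, a list that also holds those of ribosomal protein genes not analysed here, DESeq2 called 3 (15.8% of all genes). Before adjustment 9 were under 0.05 in edgeR's test (24.7% of all genes). After adjustment only RPLP0P2 passed in that test, or 1.25%, beside 7.84% of all genes tested. It was at 11.1, 13.4 and 14.9 CPM in KO replicates 1, 2 and 3, against 23.01, 24.2 and 24.9 CPM in WT replicates 1, 2 and 3 (-0.87 ± 0.16 SE, edgeR adjusted p = 0.0242), while RPLP0 itself did not pass.

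Other genes of translation and of its control were compared in the same fit, where 7.84% of all genes tested passed. Of 67 mitochondrial ribosomal protein genes tested, which serve the organelle's own ribosome, 4 rose and 1 fell, with a median log2 fold change of 0.05. Among 18 translation factors and related genes with TOP mRNAs none passed in edgeR's test, although DESeq2 called 3 (15.8% of all genes) and 4 were under 0.05 before adjustment (24.7% of all genes), and their median was 0.02. For 55.6% of the 18 the groups did not overlap, with KO above in 4 and below in 6, beside 33.6% of all genes tested. TPT1, the most abundant of them, was at 4257 ± 593 CPM in KO and 4293 ± 96.5 CPM in WT (SD, n = 3 each). HNRNPA1, next in abundance, was at 1929 ± 89.1 CPM in KO and 1594 ± 104 CPM in WT. Its groups did not overlap, and it did not pass (0.28 ± 0.08 SE, edgeR adjusted p = 0.0794). Among 43 ribosome assembly genes 2 rose and 1 fell with a median of -0.01. The risers were NOP56, a core protein of box C/D snoRNPs, at 241 ± 9.54 CPM in KO and 160 ± 9.13 CPM in WT (0.59 ± 0.09 SE, edgeR adjusted p = 0.0116), and the nucleolar GTPase gene GNL3 (0.66 ± 0.13 SE, edgeR adjusted p = 0.0308). Of 18 genes of mTORC1, LARP1 and cap-dependent initiation, the cap-binding EIF4E fell (-0.62 ± 0.11 SE, edgeR adjusted p = 0.0198) and 17 did not pass. Of 5 L-suffixed paralogs tested, RPL22L1 fell, at 161 ± 29.2 CPM in KO and 250 ± 15.3 CPM in WT (-0.63 ± 0.15 SE, edgeR adjusted p = 0.0470), while RPL22 had the fold change of 0.32 given above and did not pass. Of 10 snoRNA host non-coding genes, ZFAS1 rose (0.35 ± 0.08 SE, edgeR adjusted p = 0.0435) and 9 did not pass. Of 10 genes of the p53 response to free ribosomal proteins none passed in edgeR's test, DESeq2 called 0 and 0 were under 0.05 before adjustment. Among 32 other housekeeping genes with many pseudogenes 1 rose and 2 fell, with a median of 0.07.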

How the data were processed

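Total RNA depleted of ribosomal RNA was sequenced with a directional kit, per the labels. Each gene symbol has, in each library, an estimated count in one deposited table and RPKM in the other. Salmon 1.10.1 and hg19 are named in the submitters' processing notes, and their roles, the strand setting and the RPKM length are not given in the sources used here. One gene, named differently in the 2 tables, was left out. Rounded counts of all genes were filtered with filterByExpr, scaled by TMM and tested with edgeR 4.0.16 (R 4.3.3) in 6 libraries, KO over WT, with Benjamini-Hochberg adjustment over 13965 genes and 4 residual degrees of freedom. The standard error is the log2 fold change over the root of F. Single libraries were compared on log2(CPM + 0.5). The deposited RPKM values served for levels and for limma 3.58.1 on log2(RPKM + 1) or log2(RPKM + 0.1). DESeq2 1.42.0 was an alternative. The edgeR script was tested on simulated data. KO replicates are numbered in order of deposition.

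Genes named are those that passed, the 5 highest and 5 lowest by RPKM, the stalk genes, RPL5, the 5 with the largest difference of KO replicate 3 from the other KO libraries, and at most 2 genes per comparison list. One comparison list is not reported here. Others were named after their values were seen. Genes and lists were chosen with earlier results of these data known. Annotation is GENCODE v29 and RefSeq on GRCh38, and no hg19 position was used.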

Additional observations from a re-analysis of the deposited data

How the results depend on the processing

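No paired analysis was possible because the KO labels carry no replicate numbers shared with WT. Against 4 genes higher and 1 lower in KO, the counts of genes called were 2 and 1 with limma-voom, with DESeq2 size factors in edgeR and with no filter on low counts, 1 and 1 with limma on log2 RPKM at either pseudocount, and 6 and 3 with DESeq2. The other 5 planned settings with all libraries gave 3 or 4 higher and 1 lower. With 1 library left out, 0 to 5 were higher and 0 to 7 lower, and the median log2 fold change of the 76 genes ran from 0.0027 to 0.1188, in place of 0.0977. The sign of the log2 fold change turned for 27 of the 76 genes with 1 library left out, 22 of them without KO replicate 3, and for 9 genes in a fit on all libraries. None of these genes had passed. Among those named above it turned for RPL41 (-0.0182 to 0.255), RPL13 (-1.08e-05 to 0.288), RPS23 (-0.0626 to 0.180), RPLP0 (-0.116 to 0.353), RPL18 (-0.161 to 2.48), RPS27A (-0.201 to 0.558) and RPS9 (-0.108 to 0.640), each without KO replicate 3, for RPL24 (-0.00130 to 0.147) without WT replicate 1 and for RPL8 (-0.00189 to 0.0929) without WT replicate 3. Without KO replicate 3 it also turned for RPL13A (-0.00903), RPL3 (-0.0743), RPL35 (-0.145) and RPS14 (-0.0735). With pseudogene counts added it turned for RPS2 (-0.0527 in place of 0.205) and RPS3A (0.0371 in place of -0.114). RPL29, at -0.0132, turned in 8 fits, to at most 0.170. The summed share of counts was 5.62% in KO and 4.97% in WT with mitochondrially encoded genes and 7SK out of the total. Adding pseudogenes gave 5.13% in KO and 4.54% in WT. Fits with 1 library left out rest on fewer samples, and for the other changes the cause was not tested. With a median standard error of 0.12 on the log2 scale, small differences were not detectable in 3 libraries a group.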
